A study of Mus musculus with 22 samples.

Results

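The genes described here encode the main structural proteins of the basement membrane, the thin sheet of matrix on which epithelial cells sit. They are the laminin chains Lama1, Lama5, Lamb1 and Lamc1, the collagen IV chains Col4a1 and Col4a2, the nidogens Nid1 and Nid2, and the proteoglycan perlecan, Hspg2. These 9 of the 21881 gene symbols in the count table were taken by symbol, and all were found. Laminins are assembled in the cell from an alpha, a beta and a gamma chain and polymerise at the cell surface. Collagen IV chains join into a covalent network, and nidogens and perlecan link the networks. In the early mouse embryo the primitive endoderm and the parietal endoderm that derives from it are known as strong producers of these proteins, and Lama1, Lamb1 and Lamc1 together make the first laminin trimer of the embryo.

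The series holds RNA-seq of 8 single mouse blastocysts, taken at embryonic day 3.5, and of 7 cell lines. The embryos were 4 Nanog-null (knockout), 2 heterozygous and 2 wild-type embryos, with as many females as males by label in each genotype. The heterozygous and wild-type embryos as 1 group are called Nanog-bearing. The labels give no strain and do not describe the null allele. The lines, all with wild-type Nanog by label, were 2 male XEN lines (extraembryonic endoderm stem cells, from the primitive endoderm), 3 TS lines (trophoblast stem cells, 2 female and 1 male) and 2 ES lines (embryonic stem cells, 1 female and 1 male, labelled serum free). Each line had 2 libraries from different passages, which the labels call technical replicates and which were summed, so a line is 1 sample. Nothing in the labels says whether the lines or embryos came from separate litters, so the p-values measure the spread between these samples only.

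Totals, in mega-counts (M), ran from 14.8 to 32.2 M in embryo libraries, 12.7 to 23.7 M in XEN, 9.97 to 16.5 M in TS and 8.20 to 9.55 M in ES libraries. As a check of the labels, each null library held 6 to 12 Nanog counts, against 791 to 3456 in each Nanog-bearing library. The cDNA of the embryos was amplified and that of the lines was not prepared with the same kit, so levels were not compared between embryos and lines. Each embryo library holds trophectoderm, epiblast and primitive endoderm together, and in such a bulk sample fewer cells of a type and less RNA per cell cannot be told apart. Levels are given as CPM, the counts of a gene per mega-count of its library. Levels of different genes were compared as CPM per kb, with the length of the longest protein-coding transcript.

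Promoter windows of 300 bases, from 250 before to 50 after the start, were read from RefSeq (build GRCm38.p6), which held 6 of the 9 genes. They are shown for the collagen IV pair, whose genes are read in opposite directions from nearly one point, and for Lamb1 and Hspg2, which had the smallest p-value and the lowest level in the null embryos. Each runs 5′ to 3′ on its gene's strand, and capitals mark GC boxes (GGGCGG) and CCAAT boxes (CCAAT), searched on both strands, so that CCGCCC and ATTGG are their reverse forms. The Col4a1 window is chr8:11312777-11313076 on the minus strand, the Col4a2 window chr8:11312555-11312854 on the plus strand, the Lamb1 window chr12:31265043-31265342 on the plus strand and the Hspg2 window chr4:137468553-137468852 on the plus strand.
Col4a1: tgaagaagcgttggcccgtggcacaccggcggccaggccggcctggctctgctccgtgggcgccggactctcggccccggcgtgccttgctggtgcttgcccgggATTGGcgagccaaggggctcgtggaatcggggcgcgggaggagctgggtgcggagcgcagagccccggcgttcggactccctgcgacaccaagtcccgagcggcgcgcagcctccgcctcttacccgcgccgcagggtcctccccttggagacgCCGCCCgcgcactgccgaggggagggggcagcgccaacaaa
Col4a2: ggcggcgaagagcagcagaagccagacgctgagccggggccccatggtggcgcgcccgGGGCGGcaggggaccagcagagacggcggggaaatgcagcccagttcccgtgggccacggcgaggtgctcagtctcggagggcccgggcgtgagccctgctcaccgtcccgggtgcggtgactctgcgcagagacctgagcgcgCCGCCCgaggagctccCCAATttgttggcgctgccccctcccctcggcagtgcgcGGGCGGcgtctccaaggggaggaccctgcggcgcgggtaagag
Lamb1: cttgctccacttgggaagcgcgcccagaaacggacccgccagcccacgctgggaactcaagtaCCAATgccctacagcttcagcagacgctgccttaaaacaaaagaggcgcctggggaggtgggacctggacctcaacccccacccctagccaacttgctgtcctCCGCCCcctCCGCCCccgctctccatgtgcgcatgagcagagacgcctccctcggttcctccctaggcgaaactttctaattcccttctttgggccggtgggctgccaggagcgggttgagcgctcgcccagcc
Hspg2: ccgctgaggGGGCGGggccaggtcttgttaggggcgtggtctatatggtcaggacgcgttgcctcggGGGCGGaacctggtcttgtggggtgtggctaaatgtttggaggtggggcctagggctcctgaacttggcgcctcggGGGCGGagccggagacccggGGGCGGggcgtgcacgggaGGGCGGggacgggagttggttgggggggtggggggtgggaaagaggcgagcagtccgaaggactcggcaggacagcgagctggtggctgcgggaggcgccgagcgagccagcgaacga

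The starts of Col4a1 and Col4a2 lie 21 bases apart, and their windows share 78 bases read from opposite strands. All 6 windows, with those of Lama5 and Nid1, held a GC box, and 4 of the 6 held a CCAAT box. The only GC box of the Col4a1 window is the same site as the last one of the Col4a2 window, in the shared bases. These 2 windows are therefore not separate for the GC box. Among all 32851 RefSeq windows of this length, 35.7% held a GC box and 37.4% a CCAAT box. The Hspg2 window held 5 GC boxes and no CCAAT box. None of the 6 windows held a GATA motif (GATA between A or T in front and A or G behind), found in 29.8% of all windows, or a TATA box (TATAAA), found in 13.6%. The windows were 63.7 to 74% G or C, against a median of 52.7% over all windows. These matches describe the letters of the windows only.

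In the Nanog-null embryos the laminin chains, Col4a2 and Hspg2 were lower than in every Nanog-bearing embryo, and Col4a1, Nid1 and Nid2 overlapped. No member passed the edgeR test adjusted over 12965 tested genes (threshold 0.05), where 0.0154% of the tested genes were called. Values did not overlap and were lower in the null embryos for 6 of the 9 members (Lama1, Lama5, Lamb1, Lamc1, Col4a2 and Hspg2), against 4.21% of tested genes. An unadjusted p under 0.05 with a lower level was found for 7 of the 9, these 6 and Col4a1, against 2.44% of tested genes. The count was 4 of 9 without the wild-type female and likewise without the heterozygous male. Over all tested genes and in either direction, 644 genes had an unadjusted p under 0.05, against 333 and 316 genes without these embryos. DESeq2 called 2 of the 9, Lama1 and Lamb1, against 0.727% of the genes it tested. All 9 passed the filter on low counts, Hspg2 only through the Nanog-bearing embryos. A gene admitted that way can hardly fail to be lower in the null embryos, so Hspg2 carries no weight in the counts that include it. The members' fitted log2 fold changes had a median of -1.45, and the median of all tested genes was -0.05. The members together took 0.0174 to 0.0379% of the counts in null embryos, against 0.0524 to 0.0939% in Nanog-bearing embryos.

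**Figure D1:**
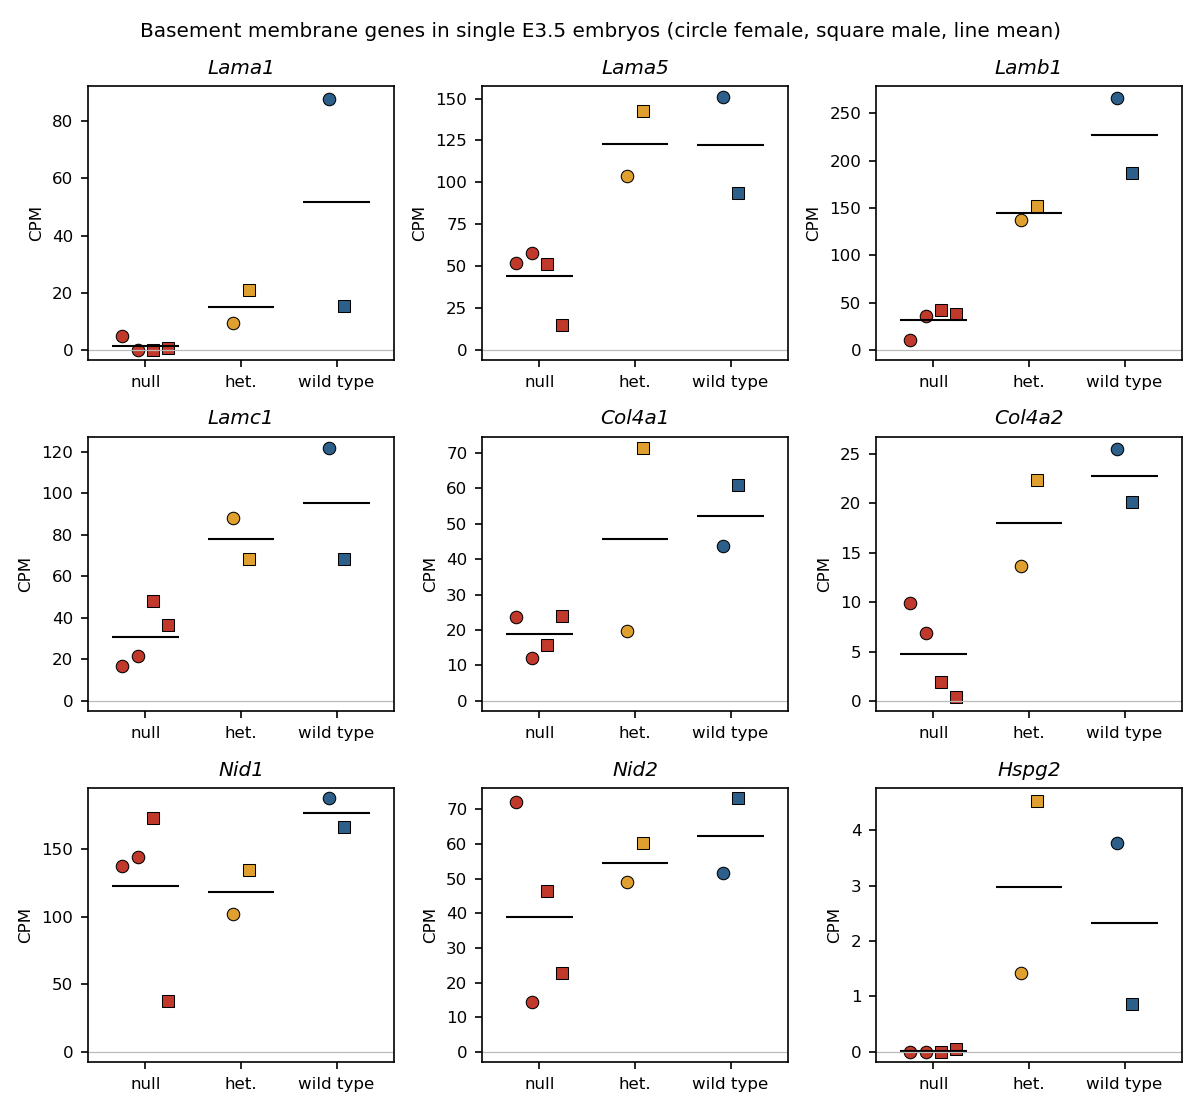
CPM of each basement membrane gene (y axis, linear, its own scale in each panel) in 4 null, 2 heterozygous and 2 wild-type embryos, 1 point an embryo, with the group mean as a line. All null points lie below all others for Lama1, Lama5, Lamb1, Lamc1, Col4a2 and Hspg2, and the groups overlap for Col4a1, Nid1 and Nid2.

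Lamb1, the beta chain shared by the early laminins, had 10.5, 35.7, 41.9 and 37.6 CPM in the null embryos (female 1, female 2, male 1 and male 2), against 137 and 152 CPM in the heterozygous and 266 and 187 CPM in the wild-type embryos. The highest null embryo was far below the lowest Nanog-bearing one, and both heterozygous embryos were below both wild-type embryos. Lamb1 averaged 31.4 ± 14.2 CPM in null and 186 ± 57.6 CPM in Nanog-bearing embryos (SD, n = 4 each). Its log2 fold change was -2.46 (SE 0.43), with an unadjusted edgeR p of 0.00021, rank 4 among all tested genes, and an adjusted p of 0.68. DESeq2 called it, with an adjusted p of 4.47e-05.

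Lama1, the alpha chain of the first embryonic laminin, had 5.00, 0, 0.104 and 0.800 CPM in the null embryos, against 9.24 and 21.0 CPM in the heterozygous and 88.0 and 15.5 CPM in the wild-type embryos. The groups did not overlap, but the embryos within each group were far apart: of the 100 Lama1 counts in the null embryos, 82 came from female 1. In summed counts per total, Nanog-bearing embryos were 25.6 times as high as null embryos (3104 against 100 counts; exact 95% interval 21.0 to 31.6, counting error only). Single embryos set this value: it was 112 times without the null female 1 and 11.3 times without the wild-type female, which held 2079 of the 3104 counts. The log2 fold change was -4.50 (SE 1.47; -6.70 to -3.39 leaving out single embryos), with an adjusted edgeR p of 0.93. The SE is the largest among the laminins, and DESeq2 gave an adjusted p of 0.0239.

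Lama5, the alpha chain that is widespread in later basement membranes, had 52.0, 57.6, 51.2 and 14.8 CPM in the null embryos, against 104 and 142 CPM in the heterozygous and 151 and 93.7 CPM in the wild-type embryos. Its log2 fold change was -1.44 (SE 0.39, adjusted p 0.93), with the null male 2 well below the other null embryos. Lamc1, the gamma chain of nearly all laminins, had 17.0, 21.4, 48.0 and 36.8 CPM in the null embryos, against 88.1 and 68.3 CPM in the heterozygous and 122 and 68.4 CPM in the wild-type embryos. Both null females were lower than both null males. The log2 fold change of Lamc1 was -1.45 (SE 0.45, adjusted p 0.93). Fitted by sex it was -2.38 in females and -0.54 in males, a difference of 1.84 (SE 0.57) that did not pass (adjusted p 1.00). No gene, member or other, was called in that test of null status by sex, with 0% of tested genes past the threshold.

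Col4a1 and Col4a2, the 2 chains of the embryo's collagen IV, both had lower means in the null embryos, with no overlap for Col4a2 alone. Col4a1 had 23.7, 12.2, 15.6 and 24.0 CPM in the null embryos, against 19.7 and 71.5 CPM in the heterozygous and 43.8 and 60.9 CPM in the wild-type embryos. The heterozygous female lay within the null range, and the log2 fold change was -1.13 (SE 0.49, adjusted p 0.93). Col4a2 had 9.94, 6.90, 1.92 and 0.350 CPM in the null embryos, against 13.7 and 22.3 CPM in the heterozygous and 25.5 and 20.1 CPM in the wild-type embryos. All null embryos were lower, the null males most, with 37 and 7 counts, and the log2 fold change was -2.62 (SE 1.08, adjusted p 0.93). Per kb, Col4a2 stood at 0.431, 0.582, 0.126 and 0.0150 of Col4a1 in the null embryos, against 0.713 and 0.320 in the heterozygous and 0.597 and 0.339 in the wild-type embryos. The ratio of the null females was within the range of the Nanog-bearing embryos and that of the null males below it, in libraries with 301 and 480 Col4a1 counts. The starts of the pair, shown above, lie 21 bases apart.

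Nid1 and Nid2, the linkers between the laminin and collagen networks, overlapped between the genotypes. Nid1 had 137.5, 144, 173 and 37.4 CPM in the null embryos, against 102 and 135 CPM in the heterozygous and 188 and 166 CPM in the wild-type embryos. Only the null male 2 was below the others, and the log2 fold change was -0.17 (-0.95 to 0.61 at 2 SE either side). Nid2 had 72.2, 14.4, 46.6 and 22.8 CPM in the null embryos, against 49.2 and 60.2 CPM in the heterozygous and 51.5 and 73.3 CPM in the wild-type embryos. The null female 1 lay within the Nanog-bearing range and the other 3 null embryos below it, and the log2 fold change was -0.49 (-1.5 to 0.53 at 2 SE either side). Both intervals include no change.

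Hspg2, perlecan, had 0 counts in 3 null embryos and 1 count in the null male 2, against 33 and 67 counts in the heterozygous and 89 and 28 counts in the wild-type embryos. Its highest level was 4.54 CPM, in the heterozygous male, so it is the scarcest member in every embryo group. In summed counts per total, Nanog-bearing embryos were 179 times as high as null embryos (217 against 1 counts; exact 95% interval 31.8 to 7108, counting error only). This interval leaves out the spread between embryos. Without the null male 2 they were 44.3 times as high with the 0 null counts set to 3 over the group. That value rests on the 3 counts chosen and also leaves out the spread between embryos, so it is no firm minimum. The counts allow up to 3 per null library, or 0.137 to 0.183 CPM. The edgeR fit gave an adjusted p of 0.93.

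Per kb, the order of the members differed between the genotypes. In the null embryos Nid1 led, at 20.2 ± 9.71 CPM per kb, followed by Nid2 at 7.99 ± 5.33 and Lamb1 at 5.43 ± 2.45 CPM per kb (SD, n = 4). In the wild-type embryos Lamb1 led, at 39.2 ± 9.66 CPM per kb, followed by Nid1 at 29.0 ± 2.52 and Nid2 at 12.8 ± 3.15 CPM per kb (SD, n = 2). Nid2, Lamc1 and Lama5 lay within one another's spread in both genotypes, and so did Lamb1 and Nid2 in the null embryos. Lamc1 stood at 0.456 to 1.22 of Lamb1 per kb in null embryos, against 0.341 and 0.487 in heterozygous and 0.278 and 0.347 in wild-type embryos, so the ratio of 1 null embryo lay inside the Nanog-bearing range.

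Against the wild-type embryos alone, the null embryos were lower without overlap in 7 of 9 members (the 6 above and Col4a1), against 11.3% of tested genes. Against the heterozygous embryos alone this held for the same 6 members, against 9.51% of tested genes. These 2 comparisons share the null embryos with each other and with the one above. Both counts again include Hspg2, which passed the filter only through the Nanog-bearing embryos and carries no weight in them. No member was called in either, where 0.0154 and 0.00771% of tested genes were called. Between heterozygous and wild-type embryos no member was called by edgeR (0% of tested genes, with 107 genes at an unadjusted p under 0.05) or by DESeq2, which called 76 genes. Lamb1 and Nid1 were lower in both heterozygous embryos, against 18.4% of tested genes lower without overlap.

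Several measured features of the libraries moved with the null embryos, and their part in the values above was not tested. The members have long transcripts, from 4.876 kb for Nid2 to 14.187 kb for Hspg2. Among all tested genes, the median log2 fold change of null over Nanog-bearing embryos was 0.16 below 2 kb, -0.09 at 2 to 4 kb, -0.22 at 4 to 6 kb, -0.24 at 6 to 9 kb and -0.29 at 9 kb and over, with a length found for 85.8% of them. The share lower without overlap was 2.95% in the shortest and 8.92% in the longest class. Lama3, a laminin alpha chain of epithelial anchoring with a transcript of 10.548 kb, was named after its values were seen. It averaged 33.7 ± 9.62 CPM in null and 33.5 ± 13.8 CPM in Nanog-bearing embryos (SD, n = 4 each). Of the 4 laminin chains tested outside the members, Lama3 among them, 3 had a negative and 1 a positive log2 fold change. Their median was -1.95, and none was called.

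**Figure D2:**
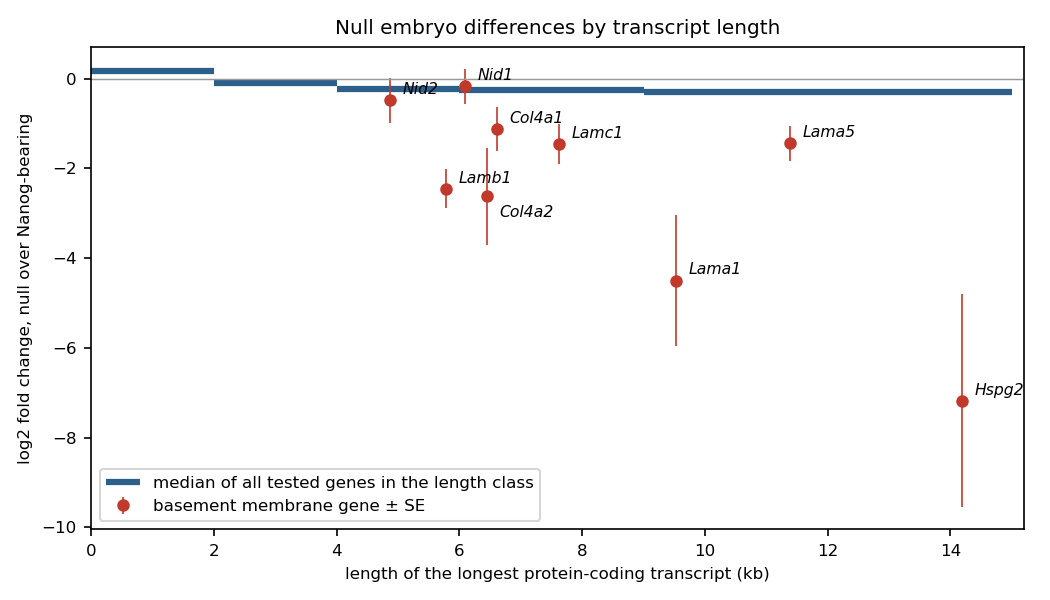
Log2 fold change of null over Nanog-bearing embryos (y axis) against transcript length in kb (x axis), with the 9 basement membrane genes as points (bars, SE) and the median of all tested genes in each length class as a thick line, the last drawn to 15 kb. The class medians run from 0.16 to -0.29, and 7 members lie below their class median by more than 1 SE while Nid1 and Nid2 do not.

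Null libraries also lacked more genes. Genes with at most 3 counts in 1 embryo while the others averaged at least 5 CPM numbered 570, 300, 133 and 809 in the 4 null libraries, and 40 to 68 in the Nanog-bearing libraries. Lama1 was among them in the null female 2 and the null male 1. The summed level of 11 primitive endoderm markers was 1126 to 1951 CPM in null and 1506 to 2069 CPM in Nanog-bearing embryos, with overlap, and Gata6, the early primitive endoderm factor, averaged 166 ± 39.4 CPM in null and 147 ± 37.5 CPM in Nanog-bearing embryos (SD, n = 4 each). Most of that sum was Dab2, an endocytic adaptor, at 1317 ± 378 CPM in null and 1451 ± 244 CPM in Nanog-bearing embryos. Of the 11 markers 8 had a lower mean in the null embryos, and 2 a higher one. Cubn, an endocytic receptor, was at 0.0610 to 8.16 CPM in null and 20.3 to 39.0 CPM in Nanog-bearing embryos, without overlap. Pdgfra, a receptor kinase of the primitive endoderm, was at 4.57 to 39.2 CPM in null and 37.9 to 112 CPM in Nanog-bearing embryos (log2 fold change -1.43, SE 0.63, adjusted p 0.93). Gata4, Sox17 and Hnf4a averaged 0.871, 0.570 and 1.71 CPM in null and 7.47, 2.34 and 6.83 CPM in Nanog-bearing embryos, with overlap. Foxa2 was at 0 in all 8 embryos, and Sox7 in the Nanog-bearing ones. Summed markers of the epiblast (8 genes) were 676 to 1163 CPM in null and 1162 to 1243 CPM in Nanog-bearing embryos, with 3 null embryos below every Nanog-bearing one. Nanog is 1 of these 8 genes, at 0.300 to 0.624 CPM in null and 53.6 to 137 CPM in Nanog-bearing embryos. Part of the gap between the sums was thus set by the genotype. Summed markers of trophectoderm (8 genes) were 2925 to 9370 CPM in null and 6212 to 8814 CPM in Nanog-bearing embryos. Of 12 fibroblast and mesenchyme markers, another source of these transcripts, the sum was 0 to 6.50 CPM in null and 0.0859 to 16.3 CPM in Nanog-bearing embryos. Col1a1, Col1a2, Col3a1, Dcn and Lum were at 0 in all Nanog-bearing embryos, and each had counts in some null embryo. Only Twist1 and Twist2 of the 12 were at 0 in all null embryos.

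In the cell lines 7 of the 9 members were higher in XEN than in both TS and ES lines, all but Lama5 and Hspg2. The members took 4.59 to 6.73% of all counts in XEN libraries, 0.250 to 0.494% in TS libraries and 0.140 to 0.213% in ES libraries. In XEN against ES lines 8 of 9 members were higher (adjusted p under 0.05), all but Lama5, against 21.8% of tested genes called higher. In XEN against TS lines 7 of 9 were higher, all but Lama5 and Hspg2, against 16.4%. In TS against ES lines 6 were higher, against 21.3%, and Lama1 and Nid2 were lower, against 20.0%, while Lamc1 did not pass. The 3 comparisons share lines pairwise.

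**Figure D3:**
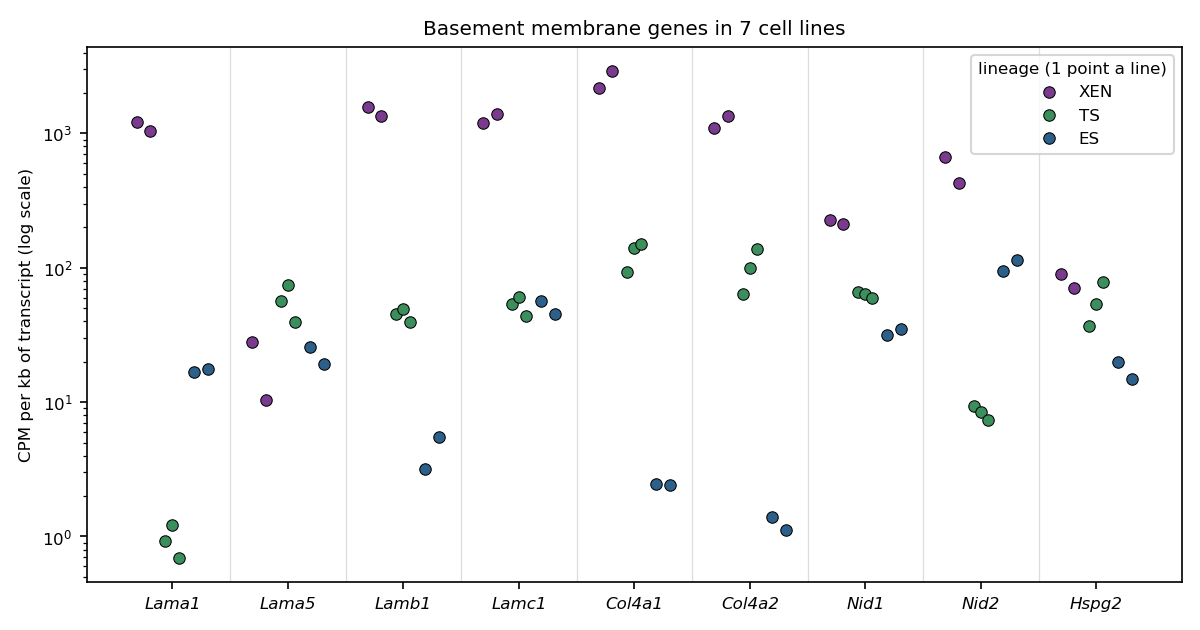
CPM per kb of transcript (y axis, log scale) of the 9 genes in 2 XEN, 3 TS and 2 ES lines, 1 point a line. XEN lines are the highest for every gene but Lama5, with an overlap with TS for Hspg2. TS lines are the lowest for Lama1 and Nid2, and ES lines for Lamb1, Col4a1, Col4a2, Nid1 and Hspg2.

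Lama1 had 11565 and 9968 CPM in the XEN lines, against 8.75, 11.5 and 6.58 CPM in the TS lines and 161 and 168 CPM in the ES lines. It had the smallest p of all 14687 genes tested in XEN against TS lines, with a log2 fold change of 10.52 (SE 0.28). It rose by 6.37 (SE 0.28) in XEN against ES lines and was lower by 4.14 log2 units in TS against ES lines. Lama5 ran another way, with 317 and 119 CPM in the XEN lines, against 649.5, 848 and 450.1 CPM in the TS lines and 294 and 220 CPM in the ES lines. TS lines were higher than ES lines (log2 fold change 1.39, SE 0.43, adjusted p 0.0371), but this did not hold without the female or the male ES line (adjusted p 0.109 and 0.200) or without either female TS line (0.0667 and 0.0953). XEN and ES lines overlapped (0.09, and -0.81 to 1.00 at 2 SE either side). XEN lines were below every TS line, with an adjusted p of 0.0504. The adjusted p was 0.0115 without male XEN line 1 and 0.0442 without the male TS line. Lama5 stood at 0.0229 and 0.00999 of Lama1 per kb in the XEN lines, against 57.2 to 62.1 in the TS lines and 1.53 and 1.10 in the ES lines, so the alpha chain that prevailed was Lama1 in XEN lines and Lama5 in TS lines.

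Lamb1 had 9020 and 7798 CPM in the XEN lines, against 264, 287 and 227 CPM in the TS lines and 18.3 and 31.9 CPM in the ES lines. It was higher in XEN than in TS lines by 5.30 log2 units (SE 0.25) and in TS than in ES lines by 3.44 (SE 0.27). Lamc1 had 9184 and 10555 CPM in the XEN lines, against 411, 463 and 336 CPM in the TS lines and 431 and 342 CPM in the ES lines. TS and ES lines overlapped for Lamc1 (0.12, and -0.24 to 0.48 at 2 SE either side), unlike for Lamb1. Per kb, Lamc1 stood at 0.773 and 1.03 of Lamb1 in the XEN lines, 1.12 to 1.22 in the TS lines and 17.9 and 8.15 in the ES lines. The 3 chains were near parity in XEN lines, where Lama1 stood at 0.779 and 0.776 of Lamb1. In ES lines Lamb1 averaged 4.33 ± 1.67 CPM per kb, and Lamb2, the other beta chain of many laminins, 5.65 ± 0.245 CPM per kb (SD, n = 2 each).

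**Figure D4:**
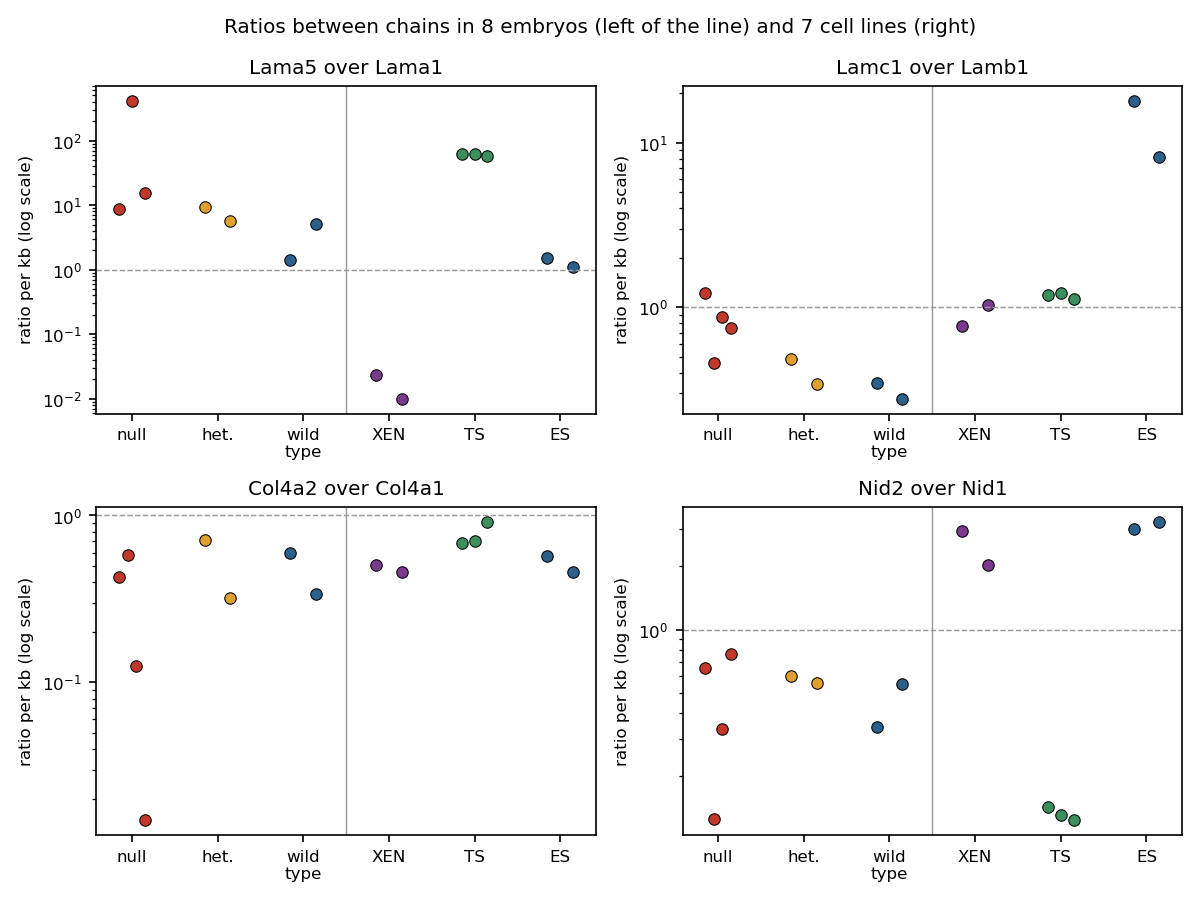
Ratios of CPM per kb between pairs of chains (y axes, log scale) in embryos by genotype and, right of the vertical line, in cell lines by lineage, 1 point an embryo or line, with 1 as a dashed line. Lama5 over Lama1 is near 0.01 to 0.02 in XEN and near 60 in TS lines, and Nid2 over Nid1 is over 2 in XEN and ES lines and under 0.15 in TS lines. A null embryo with no Lama1 count has no point for Lama5 over Lama1.

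Col4a1 was the member with the highest level in XEN lines, with 14301 and 19165 CPM, against 615, 924 and 1001 CPM in the TS lines and 16.3 and 16.02 CPM in the ES lines. Col4a2 had 7057 and 8622 CPM in the XEN lines, against 408, 638 and 887 CPM in the TS lines and 9.07 and 7.19 CPM in the ES lines. The lineages did not overlap for either chain. Their log2 fold changes were 10.36 (SE 0.41) and 10.25 (SE 0.55) in XEN against ES lines, 4.57 (SE 0.27) and 3.86 (SE 0.35) in XEN against TS lines, and 5.78 (SE 0.34) and 6.39 (SE 0.46) in TS against ES lines. Col4a2 stood at 0.460 to 0.909 of Col4a1 per kb in all 7 lines.

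Nid1 had 1383 and 1287 CPM in the XEN lines, against 402, 390 and 365 CPM in the TS lines and 192 and 214 CPM in the ES lines. It was ordered XEN, TS, ES without overlap, with log2 fold changes of 2.07 (SE 0.14) in XEN against TS lines and 0.99 (SE 0.14) in TS against ES lines. Nid2 had 3272 and 2092 CPM in the XEN lines, against 46.0, 41.0 and 36.1 CPM in the TS lines and 464 and 553 CPM in the ES lines. TS lines were lowest, by 3.57 log2 units below the ES lines and with a log2 fold change of 6.31 (SE 0.25) in XEN against TS lines. Nid2 stood at 2.95 and 2.03 of Nid1 per kb in the XEN lines, against 0.143, 0.131 and 0.124 in the TS lines and 3.02 and 3.24 in the ES lines.

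Hspg2 had 1278 and 1008 CPM in the XEN lines, against 521, 759 and 1107 CPM in the TS lines and 281 and 211 CPM in the ES lines. XEN and TS lines overlapped (log2 fold change 0.78, SE 0.34, adjusted p 0.113), and without the male TS line XEN lines were called higher (adjusted p 0.0149). ES lines were lowest, by a log2 fold change of 2.55 (SE 0.40) in XEN against ES lines and 1.78 (SE 0.37) in TS against ES lines. The TS call did not hold without the male ES line (adjusted p 0.0732). Per kb, Hspg2 stood at 0.0748 and 0.0513 of Lamc1 in the XEN lines, against 0.680 to 1.77 in the TS lines and 0.349 and 0.331 in the ES lines.

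**Figure D5:**
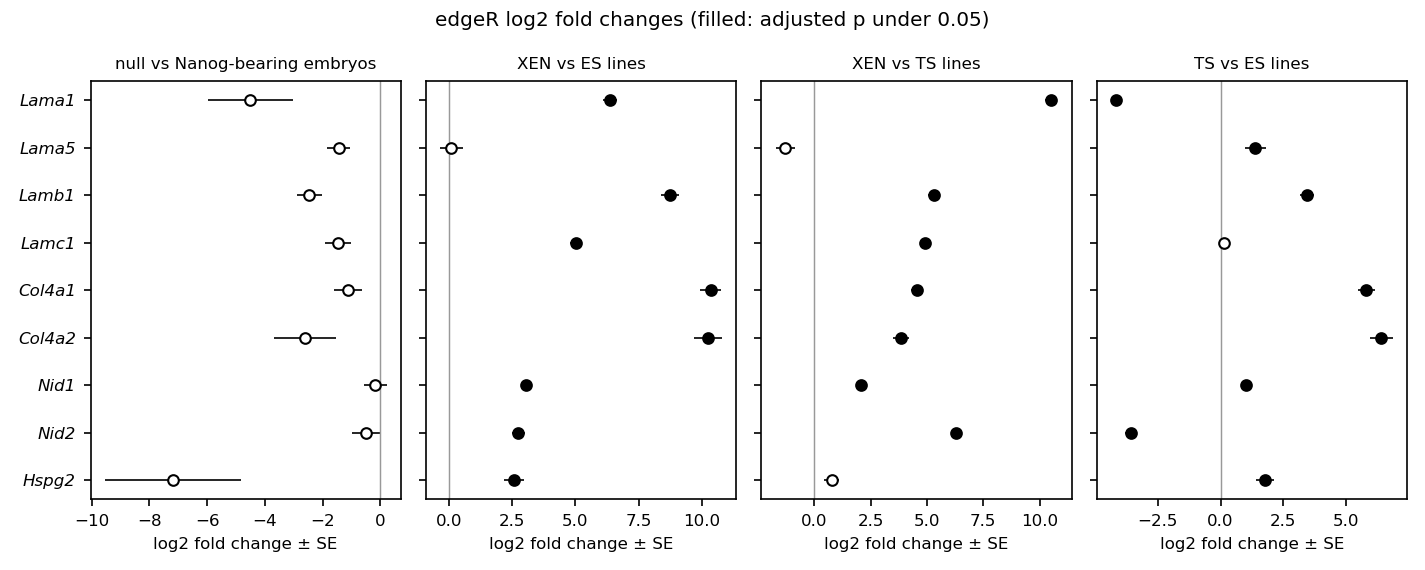
Log2 fold changes with SE (x axes) of the 9 genes in null against Nanog-bearing embryos and in XEN against ES, XEN against TS and TS against ES lines, filled where the edgeR adjusted p was under 0.05. No point is filled in embryos, and 8, 7 and 8 points are filled in the line comparisons.

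Ranked by CPM per kb among 18272 symbols with a length, Col4a1 was 4th in XEN lines, Lamb1 13th, Lamc1 19th, Col4a2 24th and Lama1 29th. In TS lines the highest member was Col4a1, at rank 490, and in ES lines Nid2, at rank 568. The 2 libraries of a line, from different passages, also differed. In male XEN line 1 Lama1 had 8093 and 13613 CPM, Lamb1 7081 and 10164 CPM and Lamc1 6751 and 10619 CPM, the second passage being higher for each. In male XEN line 2 the second passage was lower for each, with 11369 and 7807 CPM for Lama1, 9044 and 5877 CPM for Lamb1 and 11399 and 9252 CPM for Lamc1. There Lama5 had 160 and 56.2 CPM, and in the male ES line Nid1 had 107 and 322 CPM. Nid2 differed little, by 1.01 to 1.21 times between the passages of each line. Primitive endoderm markers summed to 3739 to 4878 CPM in XEN, 46.0 to 51.2 CPM in TS and 17.6 to 18.8 CPM in ES lines. Cdx2, a trophectoderm factor, was highest in TS lines (92.1 to 129 CPM) and Pou5f1, a pluripotency factor, in ES lines (1581 to 1667 CPM). The marker sum of fibroblast and mesenchyme genes was 10.4 to 11.03 CPM in XEN, 34.4 to 137 CPM in TS and 11.5 to 18.2 CPM in ES lines. It was 259.6 CPM in 1 library of female TS line 2, whose Lama5 differed from that of the other passage by 1.01 times and whose Col4a1 by 1.28 times. Blood markers summed to 0.777 to 0.983 CPM in XEN, 169 to 778 CPM in TS and 421 to 658 CPM in ES lines. Of these 7 markers, Ptprc, Lyz2 and Tyrobp were at 0 in both ES lines and Cd52 in both XEN lines. Whether fibroblasts or blood cells were present, and their part in the members' values, was not tested.

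Genes that act with the members were taken from 7 lists holding 79 symbols, of which 78 were in the table. In embryos 52 were tested and none was called in null against Nanog-bearing embryos. Of the 52, 4 had an unadjusted edgeR p under 0.05, all lower, against 2.44% of all tested genes. Among other matrix components, Sparc, a collagen-binding glycoprotein, averaged 30.6 ± 19.8 CPM in null and 152 ± 79.0 CPM in Nanog-bearing embryos (SD, n = 4 each; log2 fold change -2.18, SE 0.63, adjusted p 0.93). Fbln1, a fibulin of basement membranes, had a log2 fold change of -2.31 (SE 0.72), and Serpinh1, the collagen chaperone of the endoplasmic reticulum, one of -3.32 (SE 1.08). For these 3 genes no null embryo reached a Nanog-bearing one, against 4.21% of tested genes lower without overlap. They were named by their small p in this same comparison. The 15 matrix receptors had a median of -0.06, near that of all tested genes, and Itga6, a laminin-binding integrin chain, had -0.68 (SE 0.43). The 6 endoderm transcription factors had a median of -3.38, with Gata4 at -3.88 (SE 2.04) and Gata6 at 0.34 (SE 0.29). For 0 of these 6 was the unadjusted edgeR p under 0.05. Gata4, Sox17 and Hnf4a had the low averages in null embryos given above. The authors' deposited table lists 78 Nanog-regulated genes, of which none is a member. Of the listed matrix genes it holds Timp1, an inhibitor of metalloproteinases, marked DOWN (chrX:20447291-20451863, build mm9). Timp1 averaged 0.858 ± 1.72 CPM in null and 8.52 ± 3.23 CPM in Nanog-bearing embryos (SD, n = 4 each).

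In lines 70 of these genes were tested. In XEN against ES lines 40 were higher and 10 lower (21.8 and 23.4% of all tested genes). In XEN against TS lines 35 were higher and 21 lower (16.4 and 20.3% of all tested genes), and in TS against ES lines 37 were higher and 6 lower (21.3 and 20.0%). Genes of collagen folding and crosslinking rose widely, with 10 of 11 higher in XEN against both ES and TS lines. Among them the chaperone Serpinh1 rose by 6.54 log2 units (SE 0.37), the prolyl hydroxylase subunits P4ha1 and P4ha2 by 5.64 (SE 0.41) and 6.14 (SE 0.41), and Pxdn, a peroxidase that crosslinks collagen IV, by 6.61 (SE 0.25), each in XEN against ES lines. Of other laminin chains, Lama3 was lower in XEN than in ES lines, at 0.0266 to 0.0311 CPM in XEN and 2.01 to 2.33 CPM in ES lines, while Lamb2 rose by 3.23 (SE 0.28). Of other components Sparc rose by 6.64 (SE 0.28). Ntn4, a netrin that binds laminin, was called higher, at 28.7 to 38.5 CPM in XEN and 0.106 to 0.115 CPM in ES lines, while Col18a1, the precursor of endostatin, was lower (-6.44, SE 0.94). Among receptors, Itgb1, the beta chain of most laminin and collagen integrins, rose by 2.71 (SE 0.18), and Itga3 by 3.55 (SE 0.42). All 9 endoderm transcription factors were higher in XEN against both ES and TS lines, among them Gata6 by 9.83 (SE 0.42) and Gata4 by 7.90 (SE 0.33) against ES lines.

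Against TS lines, XEN lines had fewer receptors higher than lower, 2 against 9 of 16, among them Itgb1 (1.22, SE 0.15) and Itga5 (2.41, SE 0.46) higher and Ddr1, a collagen receptor kinase (-2.12, SE 0.26), and Itgb4 (-3.09, SE 0.51) lower. Mmp9, a gelatinase that cuts collagen IV, was lower in XEN than in TS lines, at 0.155 to 0.186 and 159.7 to 308.5 CPM. In TS against ES lines 10 of 16 receptors were higher and none lower, with log2 fold changes of 3.87 (SE 0.29) for Ddr1 and 1.5 (SE 0.16) for Itgb1, which had the smallest p-values, and 5.58 (SE 0.67) for Itga7. Tinagl1, a laminin-binding matrix protein, rose by 7.72 (SE 0.45) in TS against ES lines and by 8.08 (SE 0.46) in XEN against ES lines. Ntn1, a netrin, was lower in both (-5.35, SE 0.38, and -7.50, SE 0.51). These line comparisons share the ES lines.

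The genes most like the mean of Lama1, Lamb1 and Lamc1 were taken by Pearson's r of log2 CPM, as a description. They had to average at least 5 log2 CPM. Members, genes used to check the labels, genes of the 7 lists and cell type markers were not eligible to be named. Over the 8 embryos (4452 genes at that level) the genes named were Spp1 (r = 0.942), Chd8 (0.933), Ints3 (0.929), Zfp57 (0.925) and Dido1 (0.920). The members outside the mean had r of 0.941 for Hspg2, 0.700 for Col4a1, 0.679 for Lama5, 0.548 for Col4a2, 0.449 for Nid2 and 0.143 for Nid1. Over the 7 lines (5862 genes at that level) the genes named were Bnip2 (0.998), Synj1 (0.995), Me2 (0.994), Ckap4 (0.993) and Ifnar1 (0.992). Of all genes at that level, listed ones included, 368 exceeded 0.9. Lama5 had r of -0.457 over the lines. The points share library depth and genotype or lineage.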

How the data were processed

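RNA-seq counts per gene symbol, whole numbers that are not normalized, were deposited by the authors for 22 libraries. The tools named are TopHat 1.3.1 and edgeR, with the build mm9, per the submitters' processing notes. How reads were counted, and whether by strand, is not given in the sources used here. Overlapping or antisense reads could therefore not be told apart. The deposited list of regulated genes has a direction word per gene (a unit of the kind other), and its 22 value columns were not used.

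The members and the lists were chosen with earlier results of these data known. Embryos (3 genotype groups plus sex) and lines (2 libraries per line summed) were fitted apart with edgeR 4.0.16 (R 4.3.3; TMM, filterByExpr, robust quasi-likelihood test), with Benjamini-Hochberg adjustment over 12965 and 14687 genes and a threshold of 0.05. The biological coefficient of variation of the embryos was 0.979, that of the lines 0.346. CPM used library totals, log2 CPM a prior count of 2, and SE is the absolute log2 fold change over the root of F. Lengths are of GENCODE M21 transcripts matched by symbol. Alternatives were other scaling, no filter, DESeq2 1.42.0, limma 3.58.1 voom, no sex term, libraries entered singly and samples left out. The fits were run on simulated data, with less spread than between the embryos and larger changes than most members had there. That run checked the code and did not measure the power or error rate of the embryo fit. Of each list, up to 4 called genes per direction were eligible to be named by smallest p, or up to 2 as values where fewer than 2 passed; a selection is given. Lama3, Dab2, Cubn and Pdgfra in embryos and the level of Lamb2 in ES lines were named after their values were seen. Totals, 8.20 to 32.2 M counts per library, limit the precision of low genes. The exact intervals of count ratios cover counting error only, and those at 2 SE come from the edgeR fit.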

Additional observations from a re-analysis of the deposited data

Results flagged for a closer look

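The levels of the 9 genes were checked in the 4 null and the 4 Nanog-bearing embryos, 18 groups of values, for an embryo far from the other 3. In normally distributed values about 1 in 20 groups hold such an embryo, a rate that need not apply to levels near 0. Such an embryo was found in 4 groups. Among null embryos, Lama1 was highest in female 1, at 5.00 CPM, with the other 3 at or under 0.800 CPM. Among Nanog-bearing embryos, Lama1 was highest in the wild-type female, at 88.0 CPM, with the other 3 at or under 21.0 CPM. Among null embryos, Lama5 was lowest in male 2, at 14.8 CPM, with the other 3 at or over 51.2 CPM. Among null embryos, Hspg2 was highest in male 2, at 0.05001 CPM, which is 1 count against 0 in the other 3. Any count beside 3 values of 0 is flagged by this check. Male 2 also lacked the most genes, 809, and female 1 the second most, 570. What sets these embryos apart was not tested.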

How the results depend on the processing

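Of 378 log2 fold changes of members recomputed in embryos, 365 kept their direction and side of the threshold, and of 378 in lines, 359. In embryos DESeq2 called 2 members in null against Nanog-bearing (Lama1 and Lamb1), 1 against wild-type and 1 against heterozygous embryos (Lamb1 in both), and the fit with no filter called 2, 2 and 1. Other alternatives, with each embryo left out in turn, called 0, as did leaving out null female 1 and male 2 together. Over all genes, DESeq2 called 87, 96, 77 and 76 genes and no filter 50, 37, 19 and 4 in the 4 embryo comparisons, against 2, 2, 1 and 0, and voom 0.

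Nid1 changed sign in null against Nanog-bearing embryos (-0.54 to 0.15 leaving out single embryos; 0.20 without null female 1 and male 2 together) and against heterozygous embryos (-0.29 to 0.45). Lama5 did so in XEN against ES lines (-0.042 with voom; -0.76 to 0.64 leaving out single lines), and Lamc1 in TS against ES lines (-0.059 to 0.32). None of these was called. Lama5 in XEN against TS lines passed with DESeq2 (adjusted p 0.00608), RLE scaling (0.0449), voom (0.0174) and the members left out of the scaling (0.0471). The cause was not tested. The numbers of the passages pair no samples across lineages (correlation of same-numbered deviations -0.126 to 0.151). With the 14 libraries entered singly and a replicate block, 8, 8 and 8 members were called in the 3 line comparisons, as without the block. Low counts limit Hspg2, Lama1 and Col4a2 in null embryos.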
